A study of Mus musculus with 5 samples.

Results

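The genes described are 10 that mark or are made by mesothelium, the flat epithelium that lines the pleura, pericardium and peritoneum: Prg4, Slpi, Msln, Upk3b, Upk1b, Wt1, Krt8, Krt18, Krt19 and Gpm6a. They were found as the probe sets of the deposited table whose annotated gene symbol was one of these names. A probe set is a group of short probes on the array that read 1 transcript. Of the 10 genes, 9 were found, with 13 probe sets, among 12393 genes named on the array, and Upk1b was not analysed here. Prg4 and Slpi were chosen by their log2 changes in this same comparison, where they were among the genes most reduced in db/db, and the mesothelial names were drawn up after those genes had been seen. Differences between the genotypes at these genes are therefore given as a description and support nothing on their own.

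Gene expression was measured on Affymetrix arrays in aortas of male mice of the strain BKS.Cg-m +/+ Lepr^db/J, aged 16 to 20 weeks and fed regular chow. The 3 db/db arrays (replicates 1, 2 and 3) held RNA of mice homozygous for db, a mutation in the leptin receptor gene Lepr, which become obese and diabetic, and the 2 db/+ arrays (replicates 2 and 3) held RNA of heterozygotes, which carry 1 copy of the same mutation. The design text says that adventitia and periaortic fat had been removed, but fat transcripts were bright on every array (Adipoq from 1394 to 2791, Ucp1 from 2136 to 4335). Each array read a pool of RNA from 6 aortas. The design text names the pools independent, and an array is thus 1 pool, so that the spread between arrays is that between pools and not between mice. A remaining db/+ pool of the triplicate design was not analysed here.

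Mesothelial cells secrete lubricants and protease inhibitors onto the surfaces that organs slide on, and they keep an epithelial cytoskeleton of simple keratins although they arise from mesoderm. Mesothelin (Msln), uroplakin 3b (Upk3b) and the transcription factor Wt1 are widely used to recognise them. The media and intima of an aorta have no mesothelium, but pleura lies close to the thoracic aorta and pericardium to its root. Prg4 encodes lubricin, a mucin-like glycoprotein best known from joint surfaces and also made by mesothelium and some fibroblasts. Slpi encodes a small secreted inhibitor of neutrophil elastase and cathepsin G that epithelia, macrophages and neutrophils also make.

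Promoter sequence was looked up for the 9 measured genes and Upk1b in RefSeq (assembly GRCm38.p6), and 5 of them had at least 1 entry. The 250 bases before the start site are shown for Slpi, Upk3b and Gpm6a, the genes with lower signals in every db/db array for which an entry was found (for Gpm6a the first of 2). Each is written 5′ to 3′ on the strand of the gene, and capitals mark matches to the motifs searched.
Slpi, chr2:164356508-164356757, minus strand: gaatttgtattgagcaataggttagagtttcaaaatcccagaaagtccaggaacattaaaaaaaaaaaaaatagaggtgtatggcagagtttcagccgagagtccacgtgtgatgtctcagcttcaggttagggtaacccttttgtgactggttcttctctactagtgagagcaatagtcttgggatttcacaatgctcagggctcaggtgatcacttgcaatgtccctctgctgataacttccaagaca
Upk3b, chr5:136038246-136038495, plus strand: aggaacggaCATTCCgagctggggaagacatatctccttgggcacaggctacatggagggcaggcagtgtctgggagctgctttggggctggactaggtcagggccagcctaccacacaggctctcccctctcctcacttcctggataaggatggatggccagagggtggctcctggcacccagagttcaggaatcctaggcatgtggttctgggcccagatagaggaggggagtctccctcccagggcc
Gpm6a, chr8:54779184-54779433, plus strand: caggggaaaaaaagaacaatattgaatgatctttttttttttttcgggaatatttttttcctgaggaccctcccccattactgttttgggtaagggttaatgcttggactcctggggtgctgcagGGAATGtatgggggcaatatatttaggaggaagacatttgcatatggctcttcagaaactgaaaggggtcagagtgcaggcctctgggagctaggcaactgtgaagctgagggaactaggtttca
Both strands were searched for the TATA box (TATAAA), the CCAAT box (CCAAT), the TEAD element (CATTCC), the AP-1 site (TGANTCA), the cyclic AMP response element (TGACGTCA) and the WT1 and EGR site (GCGTGGGCG), and no matches overlapped. The Upk3b window held 1 TEAD element, which began at position −241 relative to the start site, and the Gpm6a window held 1 on the opposite strand, at position −125. Of 32851 promoter windows of the same length, 12.6% held that element. No motif of the 6 was found in the Slpi window. The Slpi window was 42.0% G and C and the Upk3b window 60.8%, against a median of 52.4% over all windows.

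Deposited signals had been computed with MAS5, which merges the probes of each set into a linear value corrected for background and scales each array to a common mean. Correlations of log2 signals between arrays lay from 0.952 to 0.977, and the lowest involved db/db replicate 1. Changes are differences in log2(signal + 16), taken as db/db minus db/+, and carry the standard error (SE) of a limma fit over 13575 probe sets, and they understate the change of dim genes. Probe sets whose mean lay below a signal of about 39.5, the 40th percentile, were left out of that fit. Of the 13 probe sets 7 were kept, for 6 genes, and Msln, Wt1 and Krt19 were below the filter with every probe set they had. In pooled tissue, fewer cells of a type and less RNA per cell cannot be told apart.

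Prg4, the lubricin gene, had signals of 74.6, 104.3 and 84.4 in db/db replicates 1, 2 and 3, and of 249.3 and 254.4 in db/+ replicates 2 and 3. The highest db/db array thus lay far under both db/+ arrays, which were nearly equal. Its mean was 87.8 ± 15.1 (SD, n = 3) in db/db and 252 ± 3.61 (SD, n = 2) in db/+, so that db/db had 34.8% of the db/+ signal. The log2 change was −1.38 (SE 0.17, 95% interval −1.77 to −0.98), the 23rd lowest among the probe sets fitted.

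Slpi had signals of 155.3, 139.5 and 110.6 in db/db and of 375.4 and 339.1 in db/+. Again no db/db array came near a db/+ array. The means were 135 ± 22.7 (SD, n = 3) and 357 ± 25.7 (SD, n = 2), which put db/db at 37.8% of db/+. Its log2 change was −1.31 (SE 0.18, 95% interval −1.72 to −0.90). Within db/db the arrays did not rank alike for both secreted products, since Prg4 was lowest in replicate 1 and Slpi in replicate 3.

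In the fit over all probe sets the adjusted p was 0.046 for Prg4 and 0.052 for Slpi, values from the contrast that selected them. Prg4 thus lay just inside the threshold of 0.05 and Slpi just outside it. Over 16 alternative settings, each counted at 0.05, Prg4 was inside in 9 and Slpi in 8. The setting with a threshold of 0.1 is the main fit again, and at 0.1 both were inside. In the settings with both db/+ arrays the limma adjusted p ran from 0.017 to 0.174 for Prg4 and from 0.0196 to 0.174 for Slpi. The log2 changes stayed negative in all 16, from −1.52 to −1.06 for Prg4 and from −1.41 to −1.09 for Slpi. Most of this was fixed in advance, because filter, threshold and eBayes settings leave a log2 change as it was. Leaving out 1 array also cannot reverse the sign of Prg4 or Slpi, whose groups do not overlap. Without db/+ replicate 2 their changes were −1.39 and −1.24 with adjusted p of 0.358 and 0.388, and without db/+ replicate 3 they were −1.36 and −1.38, both at 0.543. Without db/db replicate 3 both were outside, with adjusted p of 0.0964 and 0.0982.

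**Figure D1:**
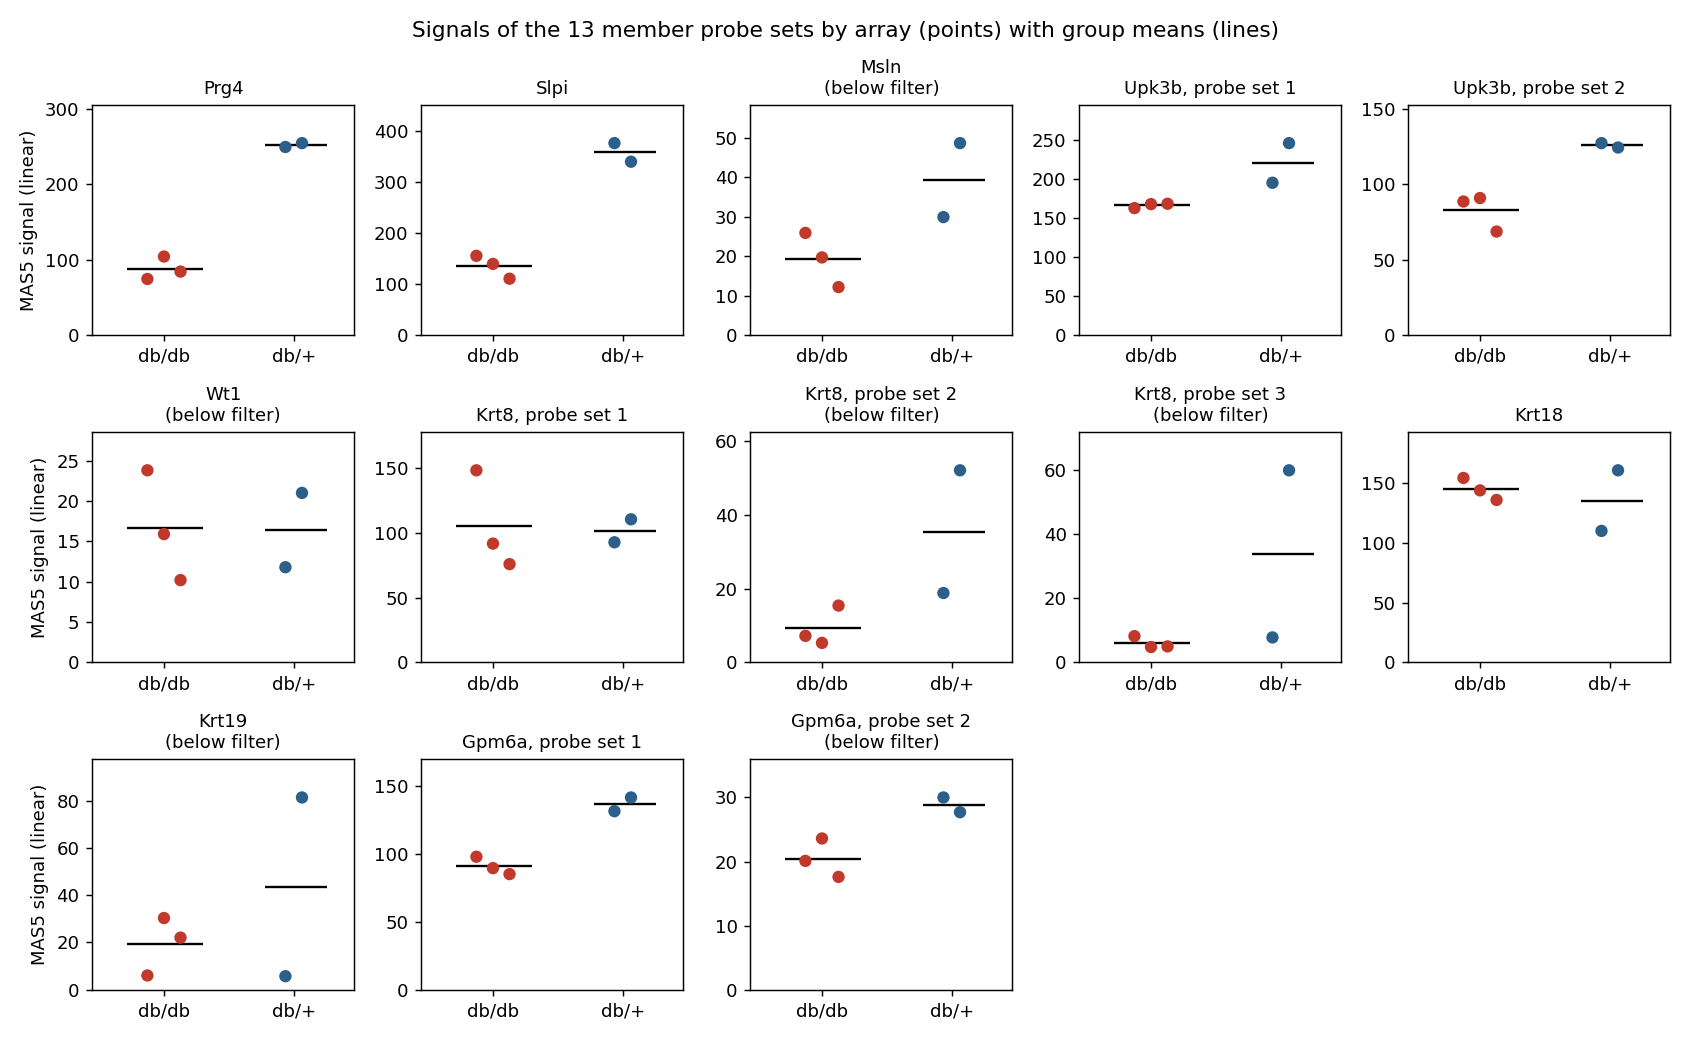
MAS5 signals (linear scale from 0, a separate scale in each panel) of the 13 probe sets in the 3 db/db arrays (red, replicates 1 to 3 from left to right) and the 2 db/+ arrays (blue, replicates 2 and 3), with lines at the group means. Prg4 and Slpi are separated widely, Upk3b and Gpm6a by less, and Krt8 probe sets 1 and 3, Krt18, Krt19 and Wt1 overlap between genotypes.

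Among the surface proteins, Upk3b, a uroplakin of urothelium and mesothelium, was read by 2 kept probe sets. The brighter gave 162.7, 167.8 and 168.3 in db/db and 195.1 and 245.8 in db/+, which made a log2 change of −0.37 (SE 0.16). The db/db arrays were almost identical there, and the gap to db/+ was larger for db/+ replicate 3 than for db/+ replicate 2. Without that array the change was −0.21, and without db/+ replicate 2 it was −0.52. The dimmer probe set gave 88.7, 91 and 68.8 in db/db and 127.4 and 124.5 in db/+, with a log2 change of −0.53 (SE 0.17), so that both probe sets of Upk3b were lower in every db/db array. Dtx2, a protein-coding gene next to Upk3b in RefSeq, had signals of 67.7, 67.8 and 65.3 in db/db and of 94.3 and 110.2 in db/+ (log2 change −0.51, SE 0.15, limma adjusted p = 0.40). Neighbours of other genes here differed. Eif3m beside Wt1 had −0.37 (SE 0.18) without overlap, while Ciao3 beside Msln had −0.014 (SE 0.19) and Eif4b beside Krt18 had 0.036 (SE 0.18). Whether neighbours change together was not tested.

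Gpm6a encodes a membrane proteolipid of neurons that mesothelial cells also carry. Its brighter probe set had signals of 97.8, 89.4 and 85 in db/db and of 131.3 and 141.4 in db/+. That is 90.7 ± 6.50 (SD, n = 3) against 136 ± 7.14 (SD, n = 2), a log2 change of −0.51 (SE 0.15). The other probe set lay below the filter and ran from 17.6 to 23.6 in db/db and from 27.7 to 30.0 in db/+, again without overlap. Its paralog Gpm6b overlapped between genotypes, with 83.4, 71 and 87.6 in db/db and 65.6 and 80.9 in db/+ (log2 change 0.12, SE 0.17, limma adjusted p = 0.91).

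Msln, the gene of the mesothelial surface protein mesothelin, was dim on every array. Its signals were 25.9, 19.7 and 12.2 in db/db and 29.9 and 48.6 in db/+. Genotypes did not overlap, yet db/db replicate 1 and db/+ replicate 2 were close to each other, and 4 of the 5 signals were below 39.5. In a fit without the filter on low signals the log2 change was −0.65 (SE 0.23).

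Wt1, the zinc finger factor of mesothelium and epicardium, had signals of 23.8, 15.9 and 10.2 in db/db and of 11.8 and 21 in db/+. All were low, and the highest and the lowest both came from db/db. The fit without the filter gave a log2 change of 0.0040 (SE 0.23). With Msln and Wt1 this low, the label of mesothelium rests in these arrays on Upk3b, Gpm6a and the keratins, each of which other tissues also express.

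Krt8 and Krt18 encode the type II and type I keratins that pair into the filaments of simple epithelia, and the genes are neighbours on chromosome 15. The Krt8 probe set that was kept had signals of 147.9, 91.5 and 75.7 in db/db and of 92.5 and 110.2 in db/+, so that its log2 change was 0.0040 (SE 0.25, 95% interval −0.56 to 0.56). Krt18 had 154.4, 144 and 136 in db/db and 110.1 and 160.8 in db/+, so that its log2 change was 0.11 (SE 0.19, 95% interval −0.32 to 0.53). In both the db/+ arrays lay among or on both sides of the db/db arrays. For these probe sets the interval of Krt8 holds a change as large as that of Upk3b, and neither holds one of the size seen at Prg4 or Slpi; values of the dimmer Krt8 probe sets are given apart.

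The sign of the keratin changes moved with single arrays. Krt18 turned to −0.14 without db/+ replicate 2 and reached 0.35 without db/+ replicate 3. Krt8 ranged from −0.24 with the replicate number as a block to 0.18 without db/db replicate 3.

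Krt19, a type I keratin without a fixed partner, and the other Krt8 probe sets were below the filter and shared 1 feature. Krt19 had signals of 6, 30.3 and 22 in db/db and of 5.7 and 81.3 in db/+. The Krt8 probe sets had 7.2, 5.3 and 15.4 in db/db with 18.8 and 52 in db/+, and 8.2, 4.8 and 5 in db/db with 7.8 and 59.8 in db/+. Each was highest in db/+ replicate 3, while db/+ replicate 2 was within or close to the db/db range. Both of these Krt8 probe sets are of a type (x) whose probes can read related genes. Prg4, Msln, Krt18 and the brighter probe sets of Upk3b and Gpm6a were also highest in db/+ replicate 3. Summed signals of the simple epithelium markers were 199 on that array, against 128 in db/+ replicate 2 and 183 to 189 in db/db. Its members differed, since the claudin gene Cldn3 was highest there at 128.7 and Epcam, a marker of many other epithelia, was at 2.4. In the fit without the filter these Krt8 probe sets had log2 changes of −0.96 (SE 0.32) and −0.95 (SE 0.45), and Krt19 had −0.44 (SE 0.63).

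Of the 6 genes with a kept probe set, 4 (Prg4, Slpi, Upk3b and Gpm6a) had a negative log2 change by their brightest probe set, as did 47% of all probe sets fitted. The same 4 were lower in db/db without overlap between the genotypes, which held for 11.9% of all probe sets, and 1, Prg4, passed the threshold in the lower direction, as did 0.081% of all. None of the 6 passed in the higher direction, and 0% of all did; at an unadjusted p under 0.05 limma had 564 probe sets lower and 540 higher. The median log2 change of the 6 was −0.44, and that of all probe sets 0.017. Since these genes were chosen with this contrast known, the shares are printed for reference only.

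Other genes of mesothelium were taken from a separate list of 16, of which 13 were measured and 7 kept. None passed in either direction, against 0.081% of all probe sets lower and 0% higher. A negative change was found at 4 of the 7, near the 47% of all probe sets. Lower without overlap were 3, against 11.9% of all, and the median was −0.10. Nkain4, a gene of a sodium pump interacting protein, had signals of 23.6, 43.2 and 39.6 in db/db and of 81.9 and 85.2 in db/+, without overlap (log2 change −0.97, SE 0.20, limma adjusted p = 0.18). Its mean in db/db was under the filter level, and it was kept through db/+. Efemp1, which encodes the matrix protein fibulin-3, had 86.3, 132.7 and 103.7 in db/db and 183.6 and 182.1 in db/+ (−0.70, SE 0.19, adjusted p = 0.32). The tight junction gene Cldn15 was at −0.26 and did not overlap either, with 51.0 to 75.3 in db/db and 79.9 to 83.2 in db/+. Igfbp6, Rspo1, Pdpn and Ezr overlapped, with log2 changes of −0.10, 0.052, 0.092 and 0.30. The 6 below the filter were Calb2, Bnc1, Aldh1a2, Krt7, Dpp4 and Cdh1.

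**Figure D2:**
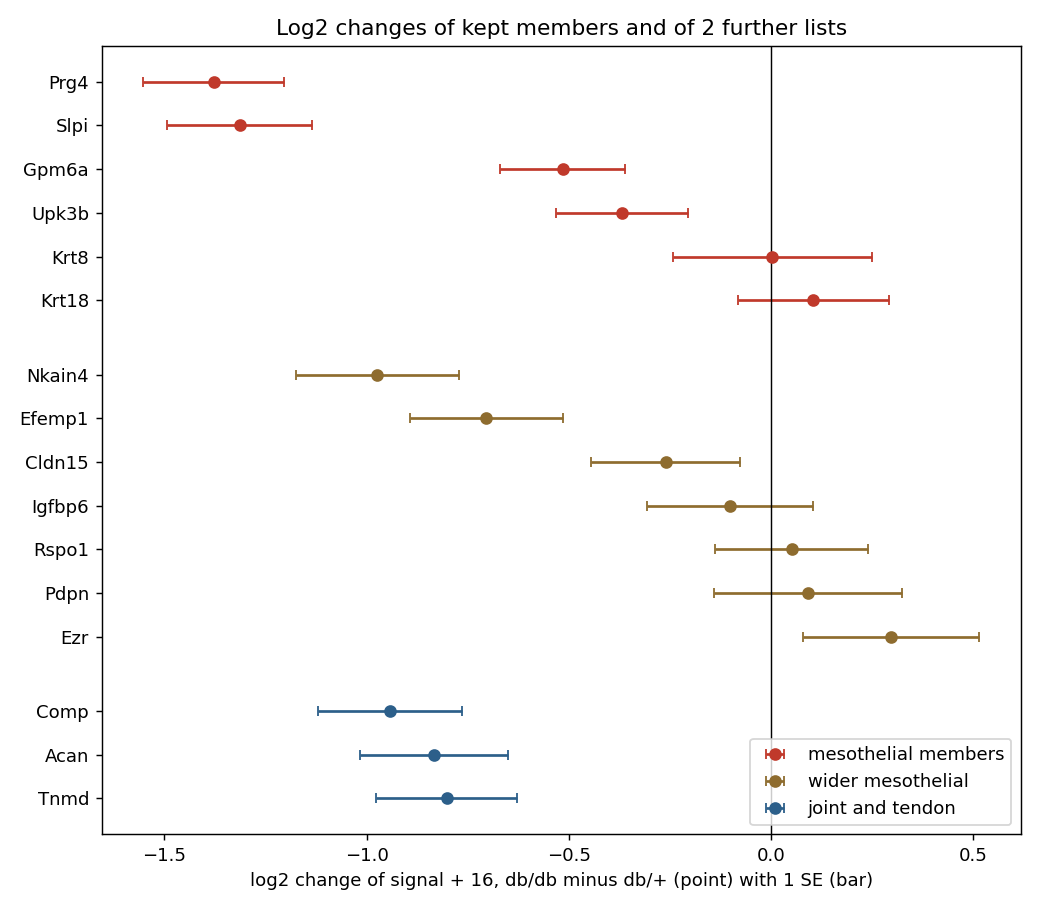
Log2 change of signal + 16 (horizontal axis, db/db minus db/+; points) with 1 SE (bars) for the brightest kept probe set of the 6 genes, of the wider mesothelial list and of the joint and tendon list. Among these plotted genes Prg4 (−1.38) and Slpi (−1.31) lie lowest, the joint and tendon genes run from −0.94 to −0.80, and Krt8 and Krt18 lie at 0.0040 and 0.11.

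Partners of each product were counted in the same way. For lubrication and hyaluronan, 5 of 10 measured genes were kept and none passed. The galectin gene Lgals3 had 113.5, 121.5 and 126.2 in db/db and 316 and 260.4 in db/+ (−1.15, SE 0.16, adjusted p = 0.052). The hyaluronan receptor Cd44 was at 0.21 (SE 0.16, adjusted p = 0.81). It was higher in db/db without overlap, by a narrow gap, with 175.6 to 202.8 against 151.4 to 174.4. The hyaluronan synthase gene Has1 overlapped between genotypes (0.085, SE 0.21). Among other inhibitors with the WAP domain of Slpi, and proteases of mast cells and neutrophils listed with them, 5 of 12 were kept and none passed. The chymase genes Mcpt4 and Cma1, of mast cells, had log2 changes of −1.45 (SE 0.27, adjusted p = 0.13) and −0.80 (SE 0.17, adjusted p = 0.19), both without overlap. Elane, Ctsg (cathepsin G) and Prtn3, proteases of neutrophils, were below the filter on average and overlapped.

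Further keratins and the proteins that anchor them had 14 measured genes, of which 4 were kept and none passed, with a median of 0.017. All 4 kept were anchors, and Pkp2, a plakophilin of desmosomes, was the one without overlap (−0.42, SE 0.17, adjusted p = 0.58), while Jup had 0.20 (SE 0.19, adjusted p = 0.86). Of the other uroplakins, Upk2 had 88.7, 82.2 and 68.5 in db/db and 40.6 and 54.4 in db/+ (0.60, SE 0.18, adjusted p = 0.38). It was thus higher without overlap, opposite in sign to Upk3b, and Upk1a was at −0.18 (SE 0.18, adjusted p = 0.86). Known targets and partners of WT1 had 9 measured genes and 5 kept, none of which passed. Spry1 and Podxl had log2 changes of −0.14 and 0.10, and the median was 0.025. Of 5 epicardial genes measured, Tbx18, Tcf21 and Gata4 were kept, with −0.068, 0.13 and 0.17. Gata4 was higher in db/db without overlap, while Tbx18 and Tcf21 overlapped.

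Joint surfaces and tendon are the tissues best known for Prg4. Of 7 such genes measured 3 were kept, none of which passed, and these 3 were lower in every db/db array, against 11.9% of all probe sets. Comp, a matrix protein of cartilage and tendon, had 143.4, 104.5 and 141.3 in db/db and 260.6 and 262.9 in db/+ (−0.94, SE 0.18, adjusted p = 0.13). Acan, the gene of the proteoglycan aggrecan, had 103.2, 111.5 and 99.4 against 166.6 and 236.9 (−0.83, SE 0.18, adjusted p = 0.20), and the tendon gene Tnmd had 26.2, 39 and 36 against 73.4 and 67 (−0.80, SE 0.17, adjusted p = 0.20). Tnmd passed the filter only through its db/+ arrays, so that its direction in the count was set by the filter. Summed over the 7 genes the signal was 299 to 323 in db/db and 547 to 605 in db/+. The cartilage collagen Col2a1 was at or below 10.7 on every array. What part these cells have in the Prg4 signal was not tested.

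Markers of other cell types were counted next, beside the same shares of all probe sets (47% negative, 11.9% lower and 13.1% higher without overlap). Of 11 macrophage markers measured, which bear on Slpi, 10 were kept, 9 had a negative log2 change and 7 were lower without overlap, with a median of −0.56 and none past the threshold. Lyz2 and Cd163 had −1.09 (SE 0.19, adjusted p = 0.10) and −0.85 (SE 0.20, adjusted p = 0.24). Their summed signal was 2602 to 2912 in db/db and 3944 to 4801 in db/+. Liver cell markers had summed signals at 27% to 48% of their db/+ mean in db/db, with 7 of 7 kept members negative, 5 of them without overlap, and Alb past the threshold (−2.24, SE 0.20, adjusted p = 0.0090). Endothelial markers stood at 61% to 80%, none of the 6 passed, and 4 were lower without overlap, Pecam1 (−0.84) and Vwf (−0.57) among them, while Cdh5 and Kdr were at −0.057 and 0.039. Lymphatic endothelial markers stood at 64% to 86%, with 3 of 4 kept, none past the threshold, and Lyve1 (−0.87, SE 0.28, adjusted p = 0.44) and Flt4 (−0.28, SE 0.17, adjusted p = 0.73) lower without overlap. The part of these cells in the results for Prg4 and Slpi was not tested.

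Neutrophil markers, the other leukocyte source of Slpi, had 3 of 7 measured genes kept, all with overlap and none past the threshold, and a median of −0.0026 (Ltf 0.17, Mpo −0.079). S100a8 and S100a9 were highest in db/+ replicate 3, at 52.5 and 75.8. Fibroblast markers had a median of 0.089, with 8 kept, none past the threshold, and summed signals of 98% to 117% of the db/+ mean in db/db; Pdgfra was at −0.30 and Pi16 at 0.21. Smooth muscle markers, which define the aortic media, had high signals on all arrays (Acta2 from 6379 to 9147) and a median of 0.19. None of these 7 passed, all 7 had a positive change, and Myh11 (0.15), Smtn (0.32) and Lmod1 (0.36) were higher in db/db without overlap. Of the stratified epithelium list 0 of 7 were kept, and of the simple epithelium list 1 of 7 was, Cldn3 (−0.096). Of the 5 lung epithelium markers kept none passed, and all overlapped except Sftpc (0.35), with Sftpb at 0.48. The mean of Sftpc in db/+ was under the filter level, and it was kept through db/db. Summed signals of the lung list were 72% to 107% of the db/+ mean in db/db.

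Fat, heart muscle and nerve were the other tissues counted. Of 6 white adipocyte markers kept, 4 had a negative change and 1 passed, the fat hormone gene Lep, with 23.4, 12 and 35 in db/db and 301.6 and 263.9 in db/+ (−2.96, SE 0.24, limma adjusted p = 0.0073). Lep was under the filter level in every db/db array. The summed signals of that list were 70%, 123% and 91% of the db/+ mean in db/db replicates 1, 2 and 3. Brown adipocyte markers had 5 of 5 positive, 1 of them, Elovl3 (1.16, SE 0.27, adjusted p = 0.24), without overlap, none past the threshold, and sums of 76%, 146% and 130%; Ucp1 was at 0.29. Cardiac muscle markers stood at 309% in db/db replicate 2 and at 43% and 58% in db/db replicates 1 and 3, with overlap at all 6 and none past the threshold (Myl2 −0.81, Tnnt2 −0.26). Prg4 was highest among the db/db arrays in that same replicate 2, and without it the log2 change of Prg4 was −1.49. Slpi was highest among them in replicate 1. In db/+ replicates 2 and 3 the cardiac sums were 117% and 83%, where Prg4 had 249.3 and 254.4. Nerve markers had 2 of 6 kept, Th (0.36, higher without overlap) and Stmn2 (−0.016, with overlap), neither past the threshold. The part of fat and heart muscle in the results for Prg4 and Slpi was not tested.

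**Figure D3:**
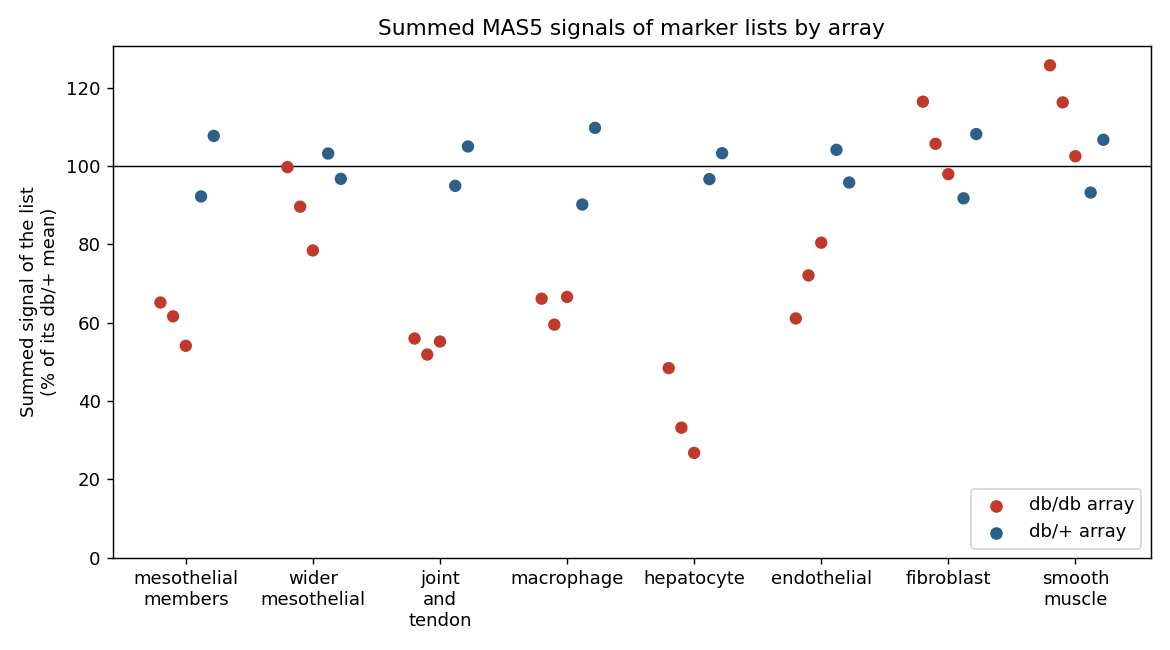
Summed MAS5 signal of the measured genes of 8 lists on each array, as a percentage of the mean of the 2 db/+ arrays (vertical axis from 0; red db/db, replicates 1 to 3 from left to right; blue db/+, replicates 2 and 3). The mesothelial genes lie at 54% to 65% in db/db, a sum that includes Prg4 and Slpi, which were chosen by their reduction in this comparison. Without Prg4 and Slpi the sums of the genotypes overlap, and so do the signals of Wt1, Krt8, Krt18 and Krt19 singly. The wider mesothelial list lies at 99.8%, 89.7% and 78.5% in db/db replicates 1, 2 and 3. Joint and tendon genes lie at 52% to 56%, macrophage markers at 60% to 67% and smooth muscle markers at 103% to 126%.

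Likeness over the 5 arrays was measured as the root mean square difference between log2 profiles, each centred on its mean, where 0 is the same profile. It follows mostly the size of the gap between genotypes, and the arrays share that gap. Nearest to Prg4 among 8263 named genes with a kept probe set were Lyz1 (0.089), Npr3 (0.11), Ccl6 (0.11), Angptl4 (0.14) and Plk2 (0.14), a lysozyme, the natriuretic peptide clearance receptor, a chemokine, a lipoprotein lipase inhibitor and a kinase. Probe sets of Lyz1 and Serpina1b can also read close copies of these genes. Slpi lay at 0.22 from Prg4, and 13 genes, Slpi included, were that near or nearer. Upk3b, Gpm6a and Msln were farther, at 0.52, 0.46 and 0.46.

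The genes nearest to Slpi were Aldh1a1 (0.13), Serpina1b (0.16), Npr3 (0.16), Hpd (0.17) and Cyp1b1 (0.20). Aldh1a1 makes retinoic acid, and Serpina1b and Hpd are genes of liver. Npr3 was the gene on both lists. Nearest to the dim Msln profile were Cd53, Tat, Psat1, Mtmr14 and Armh4, from 0.097 to 0.11. Among the mesothelial genes themselves, the closest were Wt1 and Krt8 (0.12), Upk3b and Gpm6a (0.12), Wt1 and Krt18 (0.15) and Msln and Gpm6a (0.19).

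**Figure D4:**
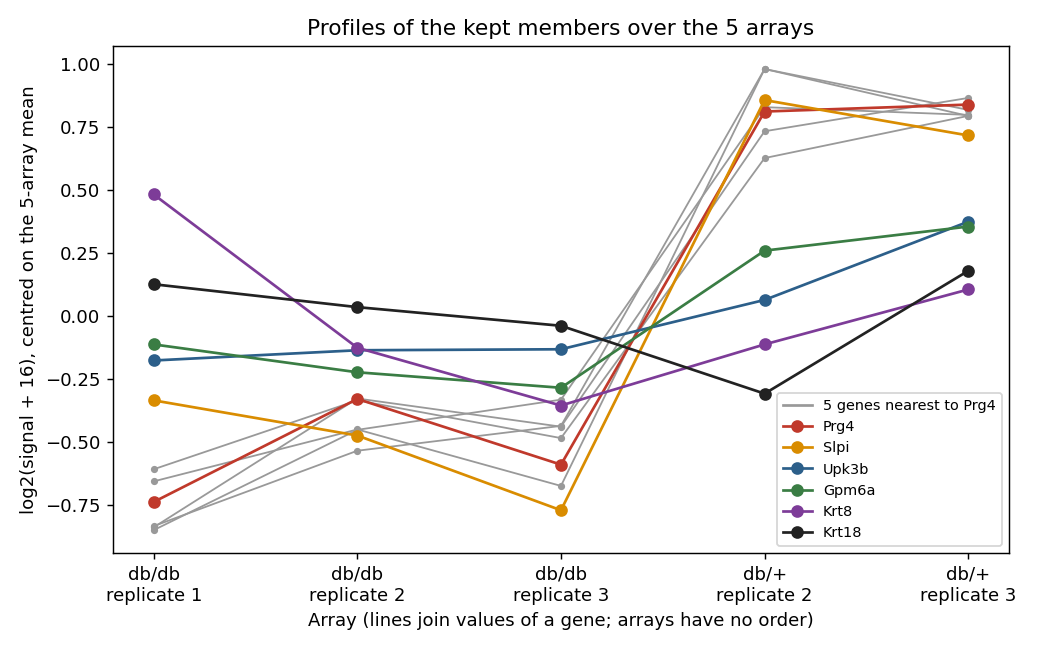
Log2(signal + 16) on each array, centred on the mean over the 5 arrays, for the 6 genes with a kept probe set (brightest probe set, coloured) and the 5 genes nearest to Prg4 (grey); lines only join the values of a gene. Prg4 and Slpi run with the grey profiles, Upk3b and Gpm6a show a smaller gap (log2 changes −0.37 and −0.51), and Krt8 is highest in db/db replicate 1.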

How the data were processed

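The values deposited by the authors were linear signal intensities from MAS5 (the version is not stated), as named in the submitters' processing notes; the array files, the genome build and detection calls were not used here. The median signal lay between 59 and 61.5 on every array, and 5 arrays limit the precision. Of 22690 probe sets 64 controls were left out. The platform annotation gave 1 symbol for 20380, several for 691 and none for 1555 of the rest; Entrez identifiers matched 20351 to RefSeq (GRCm38.p6). Signals were transformed to log2(signal + 16), kept above the 40th percentile of the mean, and fitted with limma 3.58.1 in R 4.3.3 (lmFit, eBayes, two-sided, Benjamini-Hochberg adjustment over 13575 probe sets, threshold 0.05, 3 residual and 5.63 prior degrees of freedom), which was tested on simulated data. A gene with several probe sets was represented by the brightest. Genes, lists and the naming rule (all 10 genes, every kept gene of the wider mesothelial list, the 2 of smallest p of other lists or those past the threshold, and the 5 nearest profiles) were chosen with earlier results of these data known. Dtx2, Ciao3, Eif3m, Eif4b, Has1, Acan, Col2a1, Tbx18, Acta2, Myh11, Adipoq, Cdh5, Kdr, S100a8, S100a9, Epcam, Elane, Ctsg and Prtn3 were added as background. Alternatives are in the closing section.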

Additional observations from a re-analysis of the deposited data

How the results depend on the processing

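The counts of probe sets lower and higher in db/db, and of genes here past the threshold, were 11, 0 and 1. They became 2, 0 and 0 with a pseudocount of 1; 34, 3 and 2 with 64; 1, 0 and 0 with no filter; 20, 2 and 2 with a filter at the 60th percentile; 8, 0 and 0 with quantile normalization; 18, 1 and 2 with median centring; 34, 5 and 2 with trend and robust eBayes; 41, 7 and 2 with array weights; and 41, 7 and 2 at a threshold of 0.1. When probe sets of a gene were averaged, 2 of the genes passed. Leaving out 1 array gave 0 to 24 lower, 0 to 4 higher and 0 to 2 of the genes past the threshold, with 4 to 6 of them negative. No gene passed without db/+ replicate 2, without db/+ replicate 3 (fits in which the lone db/+ array is assumed to vary like the others) or without db/db replicate 3. The cause of these shifts was not tested.

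With the replicate number as a block, 18 probe sets were lower and 2 higher and 1 of the genes passed, Slpi in place of Prg4 (adjusted p = 0.0455 and 0.0664); db/db replicate 1 then adds nothing. The sample titles link same-numbered arrays only by the number. Differences between replicates 2 and 3 of the genotypes correlated at 0.0645 across probe sets, and whether same-numbered pools were handled together was not tested. Signs of Prg4, Slpi, Upk3b and Gpm6a were negative in all 16 alternatives, Krt8 was negative in 6 and Krt18 in 1. Filter, threshold and eBayes settings cannot alter a log2 change. Leaving out 1 array cannot reverse the sign of the first 4 genes, whose groups do not overlap, so their constant sign adds little. Signals near the background limit Msln, Wt1 and Krt19.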
